A study of Sus scrofa with 12 samples.

Results

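The genes for the proteins of the cytosolic ribosome were described in porcine aortic valve interstitial cells (paVICs). Members were the genes whose symbol in the count table is that of a large (RPL) or small (RPS) subunit protein, with at least 120 counts summed over the 12 libraries. The rule gave 49 of the 31908 genes in the table, 26 for the large and 23 for the small subunit. Of 52 matching symbols, RPL10A (114 counts), RPL3L (13) and RPL10L (0) fell short of the minimum, and the member closest above it was RPL29 with 1082 counts. A further 10 ribosomal protein genes lay outside the rule, because the table gives them no symbol or a readthrough name, and they were examined beside the members. All 49 members passed the filter on low counts that left 13216 genes for testing.

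paVICs are the resident fibroblasts of the valve leaflets, here wild-type cells freed by collagenase from pooled pig valves, thawed and passaged once. They were kept for 24 h in medium with 1% serum and received vehicle, 10 μM lysophosphatidylcholine (LPC, a lipid of oxidized low-density lipoprotein), 60 μM dantrolene (an inhibitor of ryanodine receptors, the calcium channels of the endoplasmic reticulum), or LPC + dantrolene, with n = 3 per group. The vehicle was 0.6% DMSO with 0.1% ethanol. Cultures given LPC alone also received the DMSO vehicle, and those given dantrolene alone the ethanol vehicle. The replicates came from 3 isolations, and each isolation gave 1 culture to every group. Messenger RNA was sequenced after selection on its poly(A) tail, so the values are levels of messages for ribosomal proteins and not of ribosomes or of protein synthesis.

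Each cytosolic ribosome holds a single copy of nearly every ribosomal protein around its RNA, and cells coordinate the supply of these proteins closely. Their messages are short, abundant and stable, and begin with a run of pyrimidines (a TOP motif) through which the mTOR pathway adjusts their translation more than their amount. Fibroblasts that make matrix depend on this machinery, and proteins left out of assembly, mainly RPL5 and RPL11, bind MDM2 and stabilize p53.

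Libraries held 16489684 to 24105935 counts, and the correlation of log2 CPM (counts scaled to a common library size) within groups lay between 0.901 and 0.975. The 12 fibroblast and interstitial markers summed to 89962 to 92901 CPM with vehicle, wholly above LPC (56501 to 89461) and dantrolene (56387 to 80009), and to 66727 to 106049 with LPC + dantrolene. Among them LUM, a matrix proteoglycan, was called higher in all 3 comparisons with vehicle and POSTN, a matrix protein, with LPC. The 10 endothelial markers summed to 161 to 191 CPM with vehicle, wholly above LPC (124 to 154), dantrolene (141 to 150) and LPC + dantrolene (136 to 144), and CDH5, the cadherin of endothelial junctions, was called lower with dantrolene. The 10 leukocyte markers summed to 13.8 to 28.8 CPM, with 4 of them at 0 in all libraries. The muscle markers, of which 9 of 10 are in the table and 1 was at 0 throughout, summed to 2053 to 4046 CPM with vehicle, 1954 to 3569 with LPC, 1590 to 2038 with dantrolene and 844 to 2724 with LPC + dantrolene, where DES was called lower as it was with dantrolene, and ACTC1 as well. The call of ACTC1 was lost in 17 of 19 alternatives, those of DES in 5 with dantrolene and 1 with LPC + dantrolene, that of CDH5 in 4 and that of POSTN in 3, while LUM lost its call without vehicle replicate 2 with LPC and with LPC + dantrolene and without LPC replicate 2 with LPC. The part of these markers in the values below was not tested. In bulk RNA, a change in the kinds of cell present and a change of RNA in each cell cannot be told apart. LPC + dantrolene replicate 2, LPC replicates 1 and 2 and vehicle replicate 3 stood apart in these genes, and results that rest on them are given with and without them. Vehicle replicate 1 and LPC + dantrolene replicate 3 also lay low for many members, as described below.

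Ribosomal protein genes took up a similar share of the sequenced message in all groups. The members received 2.52%, 2.81% and 3.20% of the counts in the vehicle libraries, and 2.30%, 3.77% and 2.54% with LPC. The share was 2.73%, 3.37% and 3.11% with dantrolene and 2.74%, 2.84% and 2.59% with LPC + dantrolene. The lowest and the highest of the 12 libraries were thus LPC replicates 1 and 2, and every other group's range lay between them. Group means were 2.85% ± 0.341 for vehicle, 2.87% ± 0.787 for LPC, 3.07% ± 0.322 for dantrolene and 2.72% ± 0.130 for LPC + dantrolene (SD, n = 3). The 10 genes outside the rule added 0.638% to 0.994%.

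**Figure D1:**
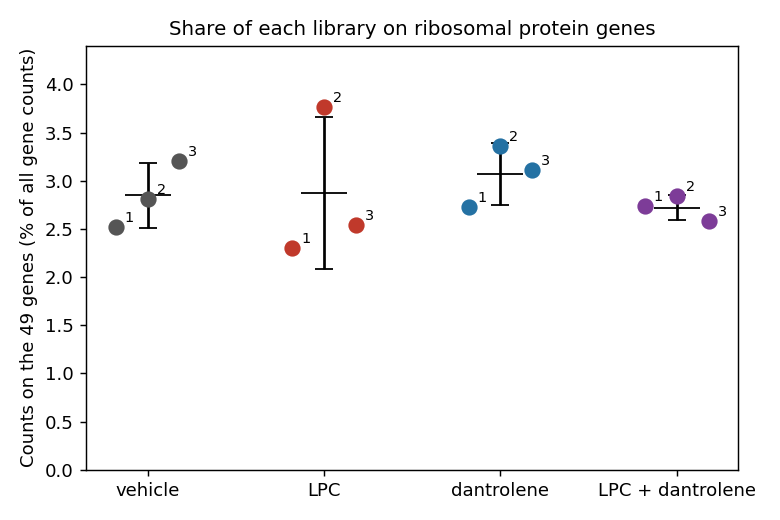
Percent of each library's gene counts that fall on the 49 ribosomal protein genes. Points are libraries marked with their replicate number, and bars are group means with the SD of 3 libraries. The 3 LPC libraries run from 2.30% to 3.77% and enclose the points of all other groups.

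The counts were spread unevenly over the members. RPLP0, the base of the stalk to which elongation factors bind, held 9.36% of all member counts, RPL10, which sits close to the catalytic centre and joins the large subunit late, 5.43%, and RPL4, which lines the exit tunnel, 4.75%. RPSA, which is also known as a laminin receptor, held 3.74%. At the other end, RPL29 held 0.0163% and RPL26 0.0347%, and the paralogs RPL26L1, RPL22L1 and RPL7L1 were also low. Transcript lengths were not used here, so these shares describe counts and do not rank the genes by number of molecules. Many ribosomal protein genes have near-identical processed copies in the genome, and how reads were assigned among such copies is not given in the sources used here, which makes the low levels of RPL29, RPL26 and RPL10A uncertain. Each member was found by its identifier in the RefSeq annotation of Sscrofa11.1, on 15 chromosomes in all, with RPLP0 (ENSSSCG00000036014) at chr14:40219196-40223943.

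With LPC no ribosomal protein gene was called higher or lower than with vehicle. Across all genes tested, 8.54% were called higher and 0.144% lower at an adjusted p under 0.05 (quasi-likelihood F test of edgeR, p-values adjusted by the Benjamini-Hochberg method). None of the 49 members had an unadjusted p under 0.05 either, against 1726 of 13216 genes higher and 373 lower at that threshold. The member with the smallest p was RPS29, a zinc-binding protein of the small subunit head, at 83.1, 69.3 and 162 CPM with vehicle and 47.9, 108 and 54.7 CPM with LPC. The groups overlapped, since LPC replicate 2 lay above 2 of the vehicle libraries. Its log2 fold change was −0.58 (standard error, SE, 0.34, adjusted p = 0.451, edgeR).

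The highest member with LPC was RPL7, an RNA-binding protein of the large subunit. It stood at 572, 420 and 453 CPM with vehicle and at 593, 767 and 642 CPM with LPC. All LPC libraries were above all vehicle libraries, by a log2 fold change of 0.47 (SE 0.33, adjusted p = 0.554, edgeR). RPL22L1, the paralog of RPL22, was at 32.2, 34.0 and 31.7 CPM with vehicle and 45.0, 52.3 and 34.4 CPM with LPC. Here too the groups did not overlap, with a log2 fold change of 0.43 (SE 0.33, adjusted p = 0.596, edgeR). RPL7 and RPL22L1 were the members without overlap in the higher direction, 2 of 49, against 16.6% of all genes tested, and 0 of 49 lay wholly below vehicle, against 10.6%.

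The members' log2 fold changes with LPC ran from −0.58 to 0.47 with a median of −0.20, close to the median of −0.18 over all genes tested. Of the 49, 44 were below 0 but 26 were below the median of all genes. The 95% intervals had a median half-width of 0.65 on the log2 scale, and for 41 of 49 genes the whole interval lay inside a 2-fold change in either direction. The median of the members was −0.01 without vehicle replicate 3, −0.02 without LPC replicate 1 and −0.40 without LPC replicate 2, so that single libraries decided its size.

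Dantrolene alone also gave no called member, against 7.54% of genes called higher and 1.26% called lower. RPL7 had the smallest p, at 560, 783 and 640 CPM with dantrolene, and the lowest of these lay below the highest vehicle library. Its log2 fold change was 0.46 (SE 0.33, adjusted p = 0.573, edgeR). At the lower end was RPS13, a protein of the small subunit, with 154, 240 and 218 CPM with vehicle and 163, 127 and 165 CPM with dantrolene. The groups overlapped, and its log2 fold change was −0.43 (SE 0.32, adjusted p = 0.598, edgeR). RPS15A was the only member whose dantrolene libraries (446, 497 and 481 CPM) all lay below the vehicle libraries (507, 512 and 577 CPM), 1 of 49 against 11% of all genes, and no member lay wholly above, against 16.1%. The log2 fold change of RPS15A was −0.16 (adjusted p = 0.859, edgeR).

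The members' median with dantrolene was −0.18 against −0.11 for all genes, with 42 of 49 below 0 and 36 below the median of all genes. It was 0.03 without vehicle replicate 3, and −0.30 without vehicle replicate 1. The interval lay inside a 2-fold change for 47 of 49 members.

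With LPC + dantrolene no member was called, against 6.23% of genes called higher and 0.9% called lower. The members lay lowest here, with a median log2 fold change of −0.29 against −0.08 for all genes tested, and 46 of 49 were below the median of all genes. RPL26L1, the paralog of RPL26, had the smallest p. It was at 18.6, 30.8 and 23.4 CPM with vehicle and at 19.5, 12.1 and 16.9 CPM with LPC + dantrolene. The groups overlapped by 1 library on each side, and the log2 fold change was −0.58 (SE 0.33, adjusted p = 0.470, edgeR). RPL38, known for a part in the translation of homeobox messages, followed with 111, 75.7 and 198 CPM with vehicle and 105, 92.0 and 59.7 CPM with both agents. Its range within vehicle covered 2 of these 3 libraries, and its log2 fold change was −0.58 (SE 0.34, adjusted p = 0.493, edgeR).

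RPL6 was the only member to lie wholly below vehicle with LPC + dantrolene (847, 819 and 867 CPM against 807, 529 and 683), 1 of 49 against 5.74% of all genes. None lay wholly above, against 4.71%. The interval lay inside a 2-fold change for 35 of 49 members. The median of the members was −0.42 without LPC + dantrolene replicate 2 and −0.12 without vehicle replicate 3. Without that replicate 2, at most 5 of 49 members in any 1 of the 7 comparisons were lower at an unadjusted p under 0.05. At most 1 was higher, and none was called. The share of all genes at that unadjusted threshold was not counted in this fit. With all 12 libraries, 497 of 13216 genes were lower and 1425 higher at it for LPC + dantrolene against vehicle.

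**Figure D2:**
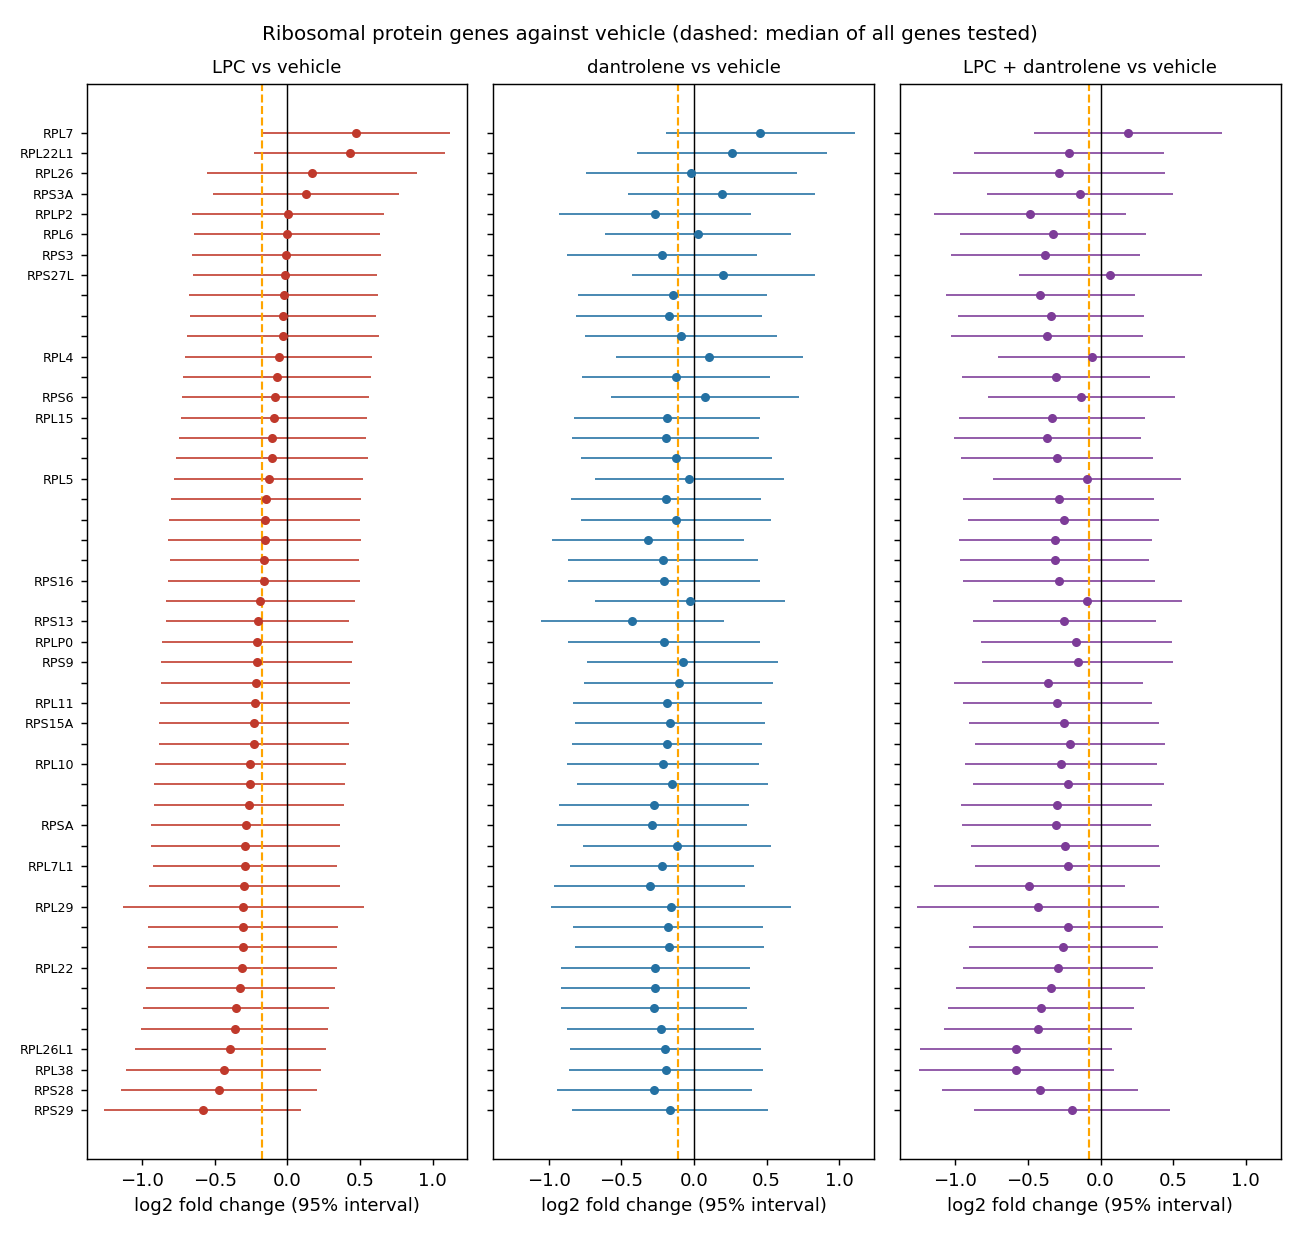
Log2 fold change of each of the 49 ribosomal protein genes against vehicle, with its 95% interval, for LPC, dantrolene and LPC + dantrolene, ordered by the value with LPC. Dashed lines are the medians of all 13216 genes tested (−0.18, −0.11 and −0.08). Every interval crosses 0, and genes named in the text are labelled.

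The size of the members' medians depended on the scaling, and with dantrolene so did the direction. TMM scaling, which assumes that most genes do not change, set the median of all genes at −0.18, −0.11 and −0.08 with LPC, dantrolene and LPC + dantrolene. On total counts alone those medians were −0.0023, 0.13 and 0.12, and the members stood at −0.02, 0.06 and −0.10, so that the sign turned with dantrolene. Taken relative to the median of all genes, the members stood at −0.03, −0.07 and −0.21 with TMM and at −0.02, −0.06 and −0.22 on total counts alone. For LPC + dantrolene this difference was below 0 in all 20 alternatives, from −0.34 without its replicate 2 to −0.06 without vehicle replicate 3. Many of these alternatives could hardly move it. Other scalings shift all genes nearly alike, and with them it was −0.21 to −0.22. Omitted LPC or dantrolene libraries lie outside this comparison, and without them it was also −0.21 to −0.22. For LPC the difference ran from −0.24 without LPC replicate 2 to 0.12 without LPC replicate 1, and for dantrolene from −0.20 without vehicle replicate 1 to 0.08 without vehicle replicate 3.

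The comparisons among treated groups and the interaction likewise gave no called member and none with an unadjusted p under 0.05. At that threshold 442 of 13216 genes were higher and 432 lower between LPC + dantrolene and LPC. These counts were 102 and 67 for LPC + dantrolene against dantrolene and 254 and 328 for dantrolene against LPC. For the interaction they were 377 and 1542. Between LPC + dantrolene and LPC, 0.507% of all genes were called in either direction, and the members had a median of −0.08 against 0.02 for all genes. This median was 0.17 without LPC replicate 2 and −0.27 without LPC + dantrolene replicate 2. Between LPC + dantrolene and dantrolene 0.0227% of genes were called, and the median of the members was −0.13 against 0.0035. It was −0.31 without LPC + dantrolene replicate 2 and −0.05 without its replicate 3. Between dantrolene and LPC 0.325% were called, and the medians were 0.04 and 0.02, with the members at −0.13 without LPC replicate 1 and 0.28 without LPC replicate 2.

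The interaction compares how far LPC moved a gene with dantrolene present and without it, as the first difference less the second. It was called for 4.65% of all genes and for no member. RPL22L1 came closest. Its levels of 32.2, 34.0 and 31.7 CPM with vehicle and 45.0, 52.3 and 34.4 CPM with LPC stood beside 25.2, 45.3 and 47.0 CPM with dantrolene and 35.2, 19.9 and 29.0 CPM with LPC + dantrolene. The log2 interaction was −0.91 (SE 0.47, 95% interval −1.84 to 0.02, adjusted p = 0.359, edgeR). Intervals of the interaction were wider, with a median half-width of 0.92, and lay inside a 2-fold change for 8 of 49 members. The median interaction of the members was 0.07 against 0.18 for all genes, and −0.22 without LPC + dantrolene replicate 2.

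The members varied between single libraries of a group, and did so in part together. LPC replicate 2 had 46 of 49 members above both other LPC libraries, and LPC replicate 1 had 38 of 49 below both. Vehicle replicate 3 had 32 of 49 above both other vehicle libraries. Vehicle replicate 1 had 34 of 49 below both others of its group and 5 above. LPC + dantrolene replicate 3 had 0 of 49 above both others and 15 below, and 2 of 49 members there lay above their own mean over the 12 libraries. An even split was seen in LPC + dantrolene replicate 1, with 20 above and 22 below both other libraries of its group. The median deviation of the members from their means over 12 libraries went from −0.42 in LPC replicate 1 to 0.42 in vehicle replicate 3 on the log2 scale. Vehicle replicate 3 was the highest of all libraries for 14 members and LPC replicate 2 for 12, while LPC replicate 1 was the lowest for 19. The SD within groups had a median of 0.365 for the members and 0.422 for all genes on log2 CPM. After the members' median of each library was subtracted, the SD of the members was 0.265.

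**Figure D3:**
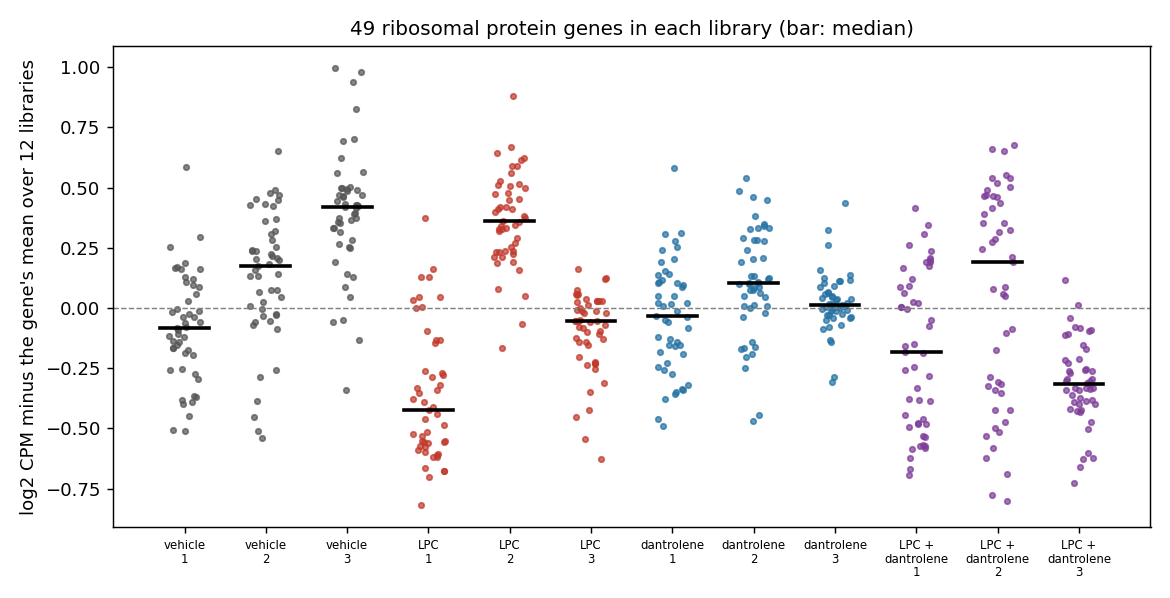
Log2 CPM of each ribosomal protein gene in each library, less that gene's mean over the 12 libraries. Points are the 49 genes and bars are library medians, which run from −0.42 (LPC replicate 1) to 0.42 (vehicle replicate 3). In LPC + dantrolene replicate 2 the points spread far to both sides of 0.

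LPC + dantrolene replicate 2 differed from the other 2 libraries of its group in opposite directions for different members. In it 29 of 49 genes were above both other libraries, 12 were below both and 8 lay between. RPS9, a small subunit protein that acts early in assembly, stood at 410 CPM against 161 and 196, a ratio of 2.30 to the geometric mean of the others. RPLP0 stood at 4164 CPM against 1788 and 2101 (ratio 2.15), and RPS16 at 698 against 332 and 367 (ratio 2.00). RPL7 was at 335 CPM against 689 and 621 (ratio 0.513), RPS27L, a p53 target, at 50.8 against 95.9 and 72.4 (ratio 0.610), and RPL22L1 at 19.9 against 35.2 and 29.0 (ratio 0.623). This library was the highest of all 12 for 10 members and the lowest for 10 others. Differences of over 1 on the log2 scale were seen for 3 members (6.12%), against 39.5% of all genes tested, so the library stood apart well beyond the ribosomal protein genes.

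The 29 members that were high and the 12 that were low there were chosen on that library, so their difference in it, 0.93 on the log2 scale between the median deviations of the 2 sets, is a description. In libraries the choice did not use, the same difference was −0.56 in LPC replicate 1 and lay between −0.11 and 0.15 in the other LPC, vehicle and dantrolene libraries. It was −0.65 in LPC + dantrolene replicate 1 and −0.08 in LPC + dantrolene replicate 3, which the choice did use.

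**Figure D4:**
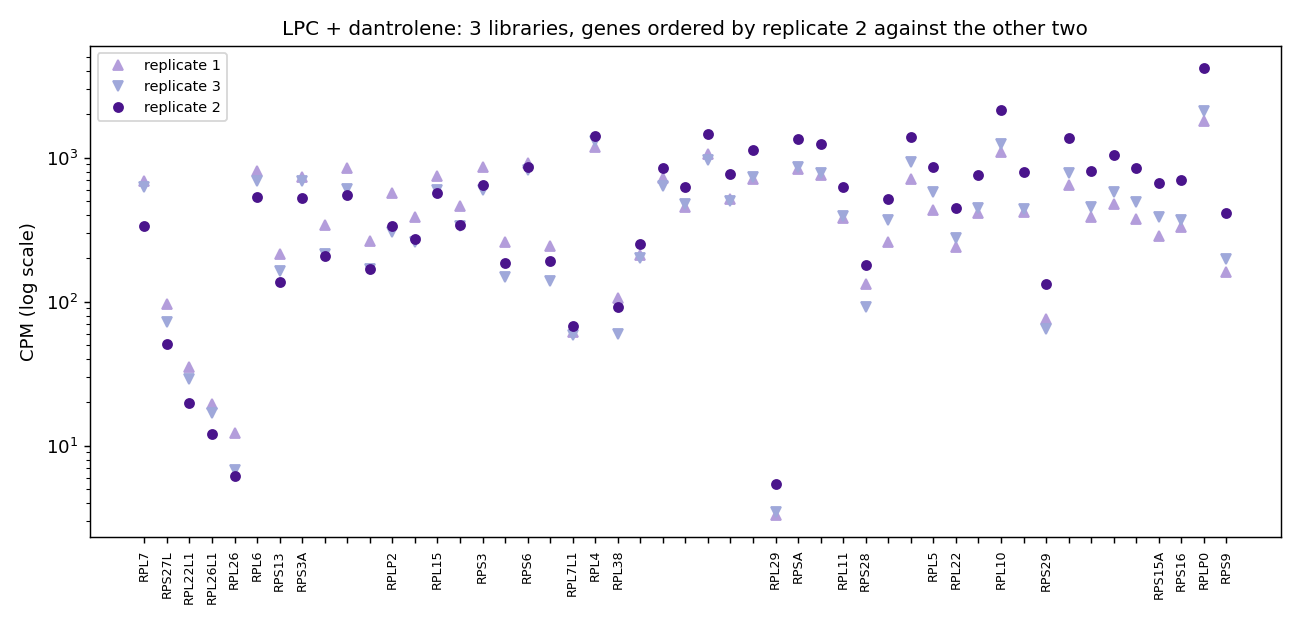
Level of each ribosomal protein gene in the 3 LPC + dantrolene libraries (CPM, log scale), with genes ordered by the ratio of replicate 2 to the other libraries and those named in the text labelled. Replicate 2 (dark circles) is lowest at the left, as for RPL7 at 335 CPM, and highest at the right, as for RPLP0 at 4164 CPM.

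Among the stalk proteins, which recruit and activate elongation factors, none was called in any comparison. RPLP0 was at 2966, 2586 and 3486 CPM with vehicle and at 1804, 3302 and 2718 CPM with LPC, with overlapping groups and a log2 fold change of −0.21 (SE 0.33, adjusted p = 0.777, edgeR). RPLP2 had log2 fold changes of 0.01, −0.27 and −0.48 with LPC, dantrolene and LPC + dantrolene. RPLP1, which lies outside the rule, had −0.26, −0.22 and −0.40, and the smallest adjusted p of the 3 stalk genes in these comparisons was 0.635 (edgeR, RPLP2).

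RPL5 and RPL11, which carry the 5S RNA into the large subunit and bind MDM2 when assembly fails, differed little from vehicle. RPL5 was at 586, 741 and 660 CPM with vehicle, 451, 732 and 634 with LPC, 519, 754 and 667 with dantrolene, and 429, 857 and 576 with both agents. The groups overlapped throughout, and the log2 fold changes were −0.13, −0.03 and −0.09. Those of RPL11 were −0.22, −0.18 and −0.30 (adjusted p of 0.757, 0.845 and 0.866, edgeR).

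The paralogs of ribosomal proteins were compared with the genes they resemble. RPL22L1 amounted to 9.25%, 8.79% and 7.21% of the RPL22 count in vehicle libraries and to 20.1%, 12.6% and 11.3% in LPC libraries. These did not overlap, and the ratio was 1.70-fold that of vehicle (exact permutation test, two-sided p = 0.1, the smallest that 3 against 3 allows, and 0.847 after Benjamini-Hochberg adjustment over 18 comparisons). With dantrolene it was 6.20%, 19.1% and 14.1%, and with LPC + dantrolene 14.8%, 4.47% and 10.5%, both overlapping vehicle. The permutation tests of paralog ratios moved libraries freely between the compared groups and took no account of the shared isolations.

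RPL7L1, a nucleolar relative of RPL7, amounted to 10.3%, 20.5% and 16.8% of the RPL7 count with vehicle and to 6.74%, 10.1% and 9.82% with LPC. The groups did not overlap, and the ratio was 0.573 of that with vehicle (exact permutation test, two-sided p = 0.1, adjusted 0.847). With dantrolene it was 10.3%, 8.67% and 9.96%, and with LPC + dantrolene 8.95%, 20.2% and 9.52%. Both genes of this pair took part, since RPL7 had a log2 fold change of 0.47 and RPL7L1 of −0.29 with LPC, neither of which was called. RPL26L1 and RPL26 had overlapping ratios in all groups. RPS27L had log2 fold changes of −0.02, 0.20 and 0.07 with LPC, dantrolene and LPC + dantrolene (adjusted p of 0.985, 0.821 and 0.979, edgeR).

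Of the small subunit proteins, RPS6, the substrate of S6 kinase, was among the 3 members that varied least. It was at 798, 995 and 1036 CPM with vehicle and at 692, 1069 and 908 CPM with LPC, a log2 fold change of −0.08. RPL10 and RPL22, of the large subunit, had log2 fold changes of −0.26 and −0.32 with LPC, −0.21 and −0.27 with dantrolene and −0.27 and −0.29 with LPC + dantrolene. RPS3, at the entry of the message channel, had log2 fold changes of −0.01, −0.22 and −0.38 with LPC, dantrolene and LPC + dantrolene, and RPSA had −0.29, −0.29 and −0.30. None was called, and for RPS6, RPS3 and RPSA the adjusted p lay between 0.699 and 0.994 (edgeR). The least variable members over all 12 libraries were RPS3A, RPL15 and RPS6, with SDs of 0.256, 0.258 and 0.259 on log2 CPM, and the most variable were RPS29, RPL38 and RPS28, with 0.526, 0.506 and 0.501. For RPL15 the highest library was 1.68 times the lowest, and for RPS29 3.39 times. The medians of the subunits were alike, at −0.22 for large and −0.19 for small subunit genes with LPC, −0.18 and −0.17 with dantrolene, and −0.30 and −0.29 with LPC + dantrolene.

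Ribosomal protein genes are short in the genome, and long genes were called higher in these cells at a larger share than short ones. The span of the members from start to end, introns included, was 1157 to 17466 bases with a median of 4057, against a median of 30524.5 for the 10802 tested genes with a RefSeq span. Of tested genes spanning under 5 kb, 1.05% were called higher with LPC, and the share was 3.37% from 5 to 20 kb, 12.5% from 20 to 100 kb and 15.7% above 100 kb. With dantrolene these shares were 1.36%, 3.02%, 10.8% and 14.1%, and with LPC + dantrolene 1.47%, 2.54%, 8.81% and 11.3%. All members belong to the 2 shorter classes, 29 under 5 kb and 20 from 5 to 20 kb.

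Read against genes of like span, the members did not lie low with LPC. The other genes under 5 kb had a median log2 fold change of −0.30 with LPC and those from 5 to 20 kb −0.27, against −0.20 for the members. With dantrolene the values were −0.29 and −0.21 against −0.18. With LPC + dantrolene they were −0.23 and −0.15 against −0.29, so that in this group alone the median of the members was below both. The size of the members' median here changed with single libraries. Without vehicle replicate 3 the members were at −0.12 and all genes at −0.05, and without LPC + dantrolene replicate 2 they were at −0.42 and −0.08. The span classes were not recomputed without these libraries. These medians are descriptions and no test was made between them.

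**Figure D5:**
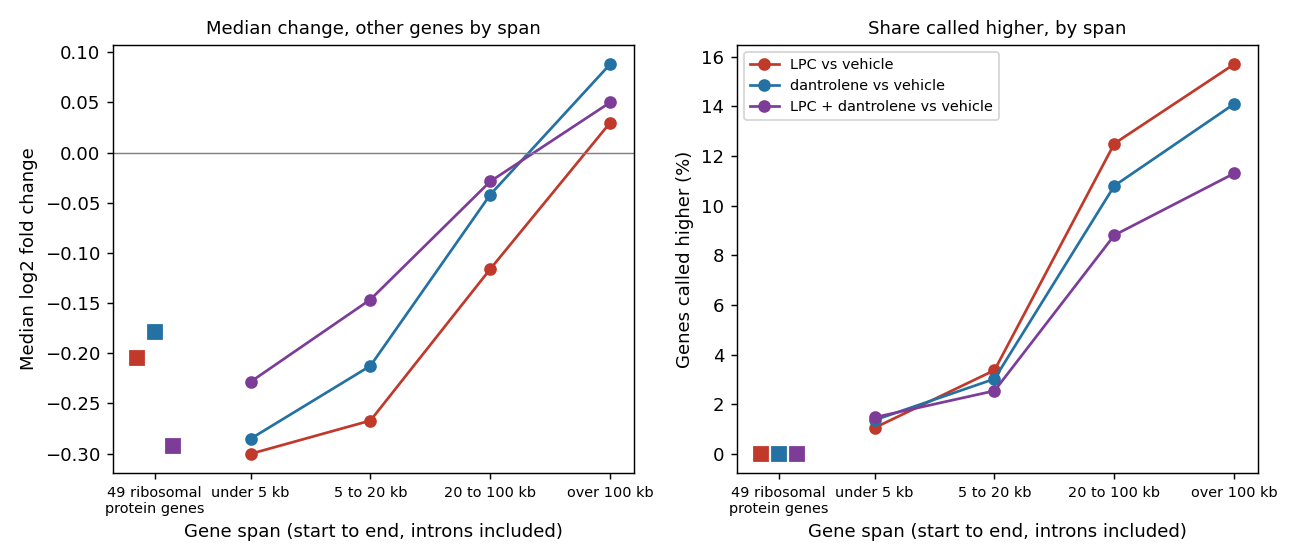
Median log2 fold change against vehicle (left) and percent of genes called higher (right) by span of the gene. Lines are all other tested genes in 4 classes of span, called share with members included, and squares are the 49 ribosomal protein genes, at −0.20, −0.18 and −0.29 on the left and at 0 on the right.

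Some genes that build or use ribosomes were called higher against vehicle, and their counts are to be read against the 8.54%, 7.54% and 6.23% of all genes called higher with LPC, dantrolene and LPC + dantrolene. Of 35 tested genes of ribosome assembly, 5 were called higher with LPC, 3 with dantrolene and 3 with LPC + dantrolene, and none lower. NMD3, the adaptor that exports the large subunit from the nucleus, was at 6.82, 6.54 and 5.64 CPM with vehicle and 23.4, 34.3 and 21.7 CPM with LPC. It rose in LPC without overlap, by a log2 fold change of 2.06 (SE 0.37, adjusted p = 1.96e-05, edgeR). With dantrolene and LPC + dantrolene it rose by 2.04 and 2.08 (adjusted p of 4e-05 and 3.7e-05, edgeR). TAF1D, a factor of RNA polymerase I, rose by 1.36, 1.25 and 1.09 in the 3 comparisons with vehicle, which share the vehicle libraries. Its call was lost with LPC without LPC replicate 2, with dantrolene without vehicle replicate 2 or 3 or dantrolene replicate 2, and with LPC + dantrolene in 8 of 20 alternatives, among them the fit with isolation as a block and 6 that left out a library. The median over the assembly genes was −0.06, −0.00288 and 0.08, against −0.18, −0.11 and −0.08 for all genes.

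Of 32 tested initiation factors, 5, 4 and 4 were called higher in the 3 comparisons with vehicle and none lower. For EIF3A, a subunit of eIF3 and 1 of these, the call with LPC + dantrolene was lost in 10 of 20 alternatives, among them DESeq2 and the block, and that with dantrolene without vehicle replicate 2 or dantrolene replicate 2. EIF5B, which joins the subunits, was at 22.9, 18.9 and 18.9 CPM with vehicle and 86.8, 102 and 89.3 CPM with LPC, and rose by 2.19 on the log2 scale (SE 0.36, adjusted p = 6.53e-06, edgeR). It rose by 2.09 with dantrolene and 1.72 with LPC + dantrolene (adjusted p of 2.02e-05 and 0.00033, edgeR). Of 10 elongation and termination factors, ABCE1, which splits ribosomes for reuse, was the only one called. It was at 17.2, 15.8 and 11.9 CPM with vehicle and 65.1, 67.7 and 51.9 CPM with LPC, a rise of 2.04 (SE 0.36, adjusted p = 1.59e-05, edgeR). Of 16 other genes known for TOP messages, 1 was called higher in each of these comparisons, near the share over all genes. It was EIF3E, also counted among the initiation factors, which rose by 1.61, 1.57 and 1.55 (adjusted p from 0.000246 to 0.000563, edgeR).

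Among 20 tested genes of mTOR signalling and control of TOP messages, 3, 2 and 2 were called higher, against 8.54%, 7.54% and 6.23% of all genes. LARP4, which binds poly(A) tails and stabilizes messages for ribosomal proteins, went from 8.91 ± 2.76 CPM with vehicle to 30.4 ± 3.71 with LPC (SD, n = 3), a rise of 1.77 on the log2 scale (adjusted p = 0.000529, edgeR). SESN3, an inhibitor of mTOR complex 1, rose by 1.19, 1.22 and 1.31 with LPC, dantrolene and LPC + dantrolene. The call of LARP4 with LPC held in all 20 alternatives, but that with dantrolene was lost in 3 (DESeq2, without vehicle replicate 2 and without dantrolene replicate 2) and that with LPC + dantrolene in 10, among them DESeq2 and the block. SESN3 lost its call with LPC with the block and without vehicle replicate 2 or 3 or LPC replicate 1 or 2, with dantrolene without vehicle replicate 2 or 3 or dantrolene replicate 2 or 3, and with LPC + dantrolene with the block, with only the compared groups fitted, and without vehicle replicate 2 or 3 or LPC + dantrolene replicate 1 or 3. Of 12 tested p53 targets, 3, 4 and 3 were called higher, beside the same shares of all genes, with list medians of 0.07, 0.60 and 0.54. RRM2B, a subunit of ribonucleotide reductase, rose by 1.91, 1.96 and 1.94. ZMAT3, a regulator of splicing, rose by 1.42, 1.84 and 1.66, a call that with LPC was lost without LPC replicate 1. The interaction was called lower for 3 of 12 p53 targets, 2 of 35 assembly genes and 4 of 32 initiation factors. It was also called lower for 1 of 10 elongation factors and, in the mTOR list, for LARP4, 1 of 20 genes. Over all genes tested it was called lower for 593 of 13216. EIF3E, counted here as an initiation factor, was the only one of 16 other TOP genes called. With isolation as a block the calls of the 3 p53 targets, of both assembly genes and of EIF3A, EIF3E and LARP4 were lost. Those of EIF5B and ABCE1 held there but were lost without LPC replicate 2 or dantrolene replicate 2. In LPC + dantrolene replicate 2 the levels of NMD3, EIF5B and ABCE1 (12.2, 33.2 and 24.0 CPM) were the lowest of their group, where the other libraries held 30.4 and 37.5, 79.1 and 88.4, and 67.7 and 76.3 CPM.

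The proteins of the mitochondrial ribosome, which form a separate machine for the mitochondrial genome, were not called. Of 67 tested genes none was called in any of the 7 comparisons, where the share over all genes ran from 0.0227% (LPC + dantrolene against dantrolene) to 8.54% (higher with LPC), with medians of −0.23, −0.17 and −0.19 against vehicle for LPC, dantrolene and LPC + dantrolene. The smallest adjusted p in those 3 comparisons was 0.0627, with dantrolene (edgeR).

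The 10 ribosomal protein genes outside the rule behaved within the range of the members. Their median log2 fold changes were −0.18, −0.11 and −0.21 against vehicle, none had an unadjusted p under 0.05 in the 7 comparisons, and adding them moved the members' medians to −0.19, −0.17 and −0.29. Of all 13216 genes, those higher and lower at that threshold against vehicle were 1726 and 373, 1611 and 535, and 1425 and 497. RPS27A, made as a fusion with ubiquitin, stood at 603 ± 87.6 CPM with vehicle, 568 ± 230.1 with LPC, 562 ± 81.2 with dantrolene and 517 ± 135 with LPC + dantrolene (SD, n = 3).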

How the data were processed

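Messenger RNA of 12 paVIC cultures (4 groups of 3) had been sequenced, and the authors deposited whole-number counts per gene on Sscrofa11.1. These are counts after an adjustment for batch with ComBat, whose batch variable is not given in the sources used here. Each isolation was run on a day of its own and gave 1 replicate number, so isolation and day cannot be told apart. P-values may be too small, because the degrees of freedom such an adjustment uses are not counted. For the aligner, the paper's methods name STAR and the submitters' processing notes HISAT2 2.0.5 (with R 4.1.1 and DESeq2 1.32.0). The counting tool and its treatment of reads with several matches are not given in the sources used here. Tables of the authors' own DESeq2 comparisons (means, fold changes and p-values) were not used.

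The tests used edgeR 4.0.16 in R 4.3.3, with filterByExpr, TMM factors and a quasi-likelihood fit of all 12 libraries with group as the only term, Benjamini-Hochberg over 13216 genes, calls at an adjusted p under 0.05. CPM are TMM-scaled, and log2 CPM used a prior count of 2. The script was tested on simulated data. Replicate numbers mark shared isolations and pair the samples. Deviations from group means correlated at a median of −0.152 within an isolation and 0.108 otherwise, in these adjusted counts. P-values measure the spread that the ComBat adjustment left between replicates, which came from 3 isolations of pooled valves. Counting error is small at these depths, and 3 counts, the floor, is far below all members.

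Members, gene lists and alternatives were chosen with earlier results of these data known. Named members were the stalk, 5S, ubiquitin-fused and paralog genes, RPSA, RPS3, RPS6, RPL10, RPL22 and RPL38, the 5 with most and the 5 with fewest counts, the 3 most and the 3 least variable, and any called. From other lists up to 2 called genes per direction and comparison were named. RPL6, RPL7, RPS9, RPS13, RPS15A and RPS16 were named after their values were seen. RPS14, RPS19 and FAU were not analysed here, and the values of 1 member named by this rule are not reported here. Alternatives were DESeq2 1.42.0, RLE factors, total counts, TMM without members, other count filters, a fit of only 2 groups, a block for the isolation, a threshold of 0.1 and the omission of each library in turn. Gene spans come from RefSeq and include introns.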

Additional observations from a re-analysis of the deposited data

How the results depend on the processing

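No member was called in any of the 21 alternatives (DESeq2, other scalings and filters, fits of fewer groups, the block, a looser threshold and the omission of each library). The lowest adjusted p was 0.150 (edgeR), without dantrolene replicate 1. At an unadjusted p under 0.05, at most 5 members were lower in a comparison, without LPC + dantrolene replicate 2, and at most 1 was higher. With DESeq2's Wald test it was at most 1 member. The share of all genes at that unadjusted threshold was not counted in these refits. With the replicate block, that is the isolation paired across groups, the members' medians against vehicle were −0.25, −0.18 and −0.32 for LPC, dantrolene and LPC + dantrolene, and no member was called (lowest adjusted p = 0.452, edgeR).

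Medians of fold changes were judged against an SD between replicates of 0.270 on the log2 scale, and shares of counts against the SD of their own group. The median interaction of the members was the only summary value that moved by more than its SD. With 1 library left out it ran from −0.22 (LPC + dantrolene replicate 2) to 0.33 (LPC replicate 2), and the cause was not tested. On total counts alone it was −0.16. The other 457 of 458 recomputed summary values moved by less or kept a count of 0. The SD of 0.270 is larger than most of the members' medians, so a median could change sign and still count as unmoved. Between LPC + dantrolene and LPC, for example, it went from −0.08 to 0.17 without LPC replicate 2. The calls of NMD3, EIF5B, ABCE1, EIF3E and RRM2B against vehicle held in every alternative. TAF1D, LARP4, SESN3 and ZMAT3 each lost a call in at least 1. With 3 libraries per group the 95% intervals of the members reached a median of 0.65 to either side on the log2 scale, which limits what can be seen to larger changes.

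Adding the genes outside the rule was chosen after seeing the data.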
